A study of Mus musculus with 13 samples.

Results

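The genes described here are 9 mouse genes of the complement system, namely C1qa, C1qb and C1qc, Cfp, Cfb, C3, C4b, C3ar1 and C5ar1. They were chosen by name, as components and receptors of complement, and every probe set carrying one of these symbols alone was taken. Of the 9 genes, 7 had a probe set of their own and all 7 were above the floor of the values often enough to be tested, among 15370 genes tested of 18193 with a probe set. C3 was not analysed here, because no probe set carried its symbol alone. C4b shared its single probe set with C4a, and the values of that probe set are given without being counted among the 7 members.

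RNA from cells sorted on CD31, a surface protein of endothelial cells that some macrophages and platelets also carry, was measured on 13 Affymetrix mouse arrays. The tumors grew in mice from SKOV3ip1, a human ovarian cancer cell line, and the methods list female athymic nude mice, which lack most T cells. The resistant group (n = 4) and the sensitive group (n = 4) came from mice given B20, an antibody against VEGF-A, and the mice were placed in these groups by how their tumors grew under it. The control group (n = 5) had received a control IgG antibody per the methods. The paper's introduction names pretreatment, maximal response and progression as the times of collection. Response and time of collection thus cannot be told apart in comparisons of these groups. The sources used here give no mouse ages, treatment times of single arrays or pooling of animals, and the labels call each array a biological replicate without tying it to a named mouse.

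Complement is a cascade of proteins that tags and lyses targets and releases small peptides that attract and activate leukocytes. The classical pathway starts when C1q binds antibody or a damaged surface and its proteases cleave C4 and C2, whereas the alternative pathway amplifies through C3, factor B and properdin. The liver makes most circulating components, while C1q is made mainly by macrophages and related cells, and the receptors for the peptides C3a and C5a sit largely on myeloid cells.

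All values below are log2 values after quantile normalization, with a floor of 2.01. Replicate arrays correlated at 0.896 to 0.955 in the resistant group, at 0.663 to 0.919 in the sensitive group and at 0.905 to 0.984 in the control group. The macrophage and monocyte markers, 15 genes such as Csf1r, Cd68 and Adgre1 with no complement member among them, had array medians of 8.29 to 9.37 on resistant arrays. The median of that list was 4.42, 5.40, 5.07 and 9.66 on sensitive arrays 1 to 4 and 8.37 to 9.46 on control arrays, so that sensitive arrays 1, 2 and 3 stood below every other array and sensitive array 4 stood above them all. Of the 15 markers, 13 had a higher mean on resistant than on sensitive arrays at an unadjusted limma p under 0.05, and Cd163 was the only one of the 15 at the floor, on 2 arrays. A second list, 10 large peritoneal macrophage markers, had medians of 6.07 to 7.04 on resistant and 4.37 to 7.14 on control arrays. On sensitive arrays its medians were 3.41 to 4.64, with 4.64 on sensitive array 4, so on this list that array too lay below every resistant array. The 14 endothelial markers, the cells the sort was aimed at, had array medians of 3.31 to 4.21 on resistant arrays and 2.83 to 3.51 on sensitive arrays. On control arrays their medians were 3.15 to 3.35, except 7.11 and 7.44 on control arrays 4 and 5. Pecam1, the gene of CD31 itself, averaged 3.08 on resistant, 2.74 on sensitive and 4.11 on control arrays. The labels call the samples endothelial cells, and among the endothelial markers Tie1 was at the floor on 4 arrays, Emcn on 2 and Tek and Vwf on 1 each. Sensitive array 4 also had the largest difference between the 3' and 5' probe sets of its control transcripts, a sign of RNA or cRNA quality, at 5.75 against 2.15 to 4.11 on the other 12 arrays. The part of these differences in the results was not tested.

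C1qa, C1qb and C1qc encode the chains that together build C1q, the recognition molecule of the classical pathway. In the RefSeq table the genes follow each other without another protein-coding gene between them, with 3600 bases from C1qb to C1qc and 2979 bases from C1qc to C1qa. Because the levels of these neighbouring genes correlated at 0.92 to 0.99 over the arrays, the 250 bases before the start of C1qb and C1qc are shown, as RefSeq sequence of build GRCm38.p6. That of C1qa is not shown here. The capitals mark GAGGAA, a PU.1 box, and TGCTGA, part of the site of Maf factors, searched on both strands.
C1qb, chr4:136886201-136886450, minus strand: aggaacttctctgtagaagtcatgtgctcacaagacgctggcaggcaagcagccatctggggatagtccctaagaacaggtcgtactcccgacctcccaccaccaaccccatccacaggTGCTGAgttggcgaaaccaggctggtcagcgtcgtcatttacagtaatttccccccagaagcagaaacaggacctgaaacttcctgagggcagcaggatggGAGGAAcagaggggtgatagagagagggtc
C1qc, chr4:136892915-136893164, minus strand: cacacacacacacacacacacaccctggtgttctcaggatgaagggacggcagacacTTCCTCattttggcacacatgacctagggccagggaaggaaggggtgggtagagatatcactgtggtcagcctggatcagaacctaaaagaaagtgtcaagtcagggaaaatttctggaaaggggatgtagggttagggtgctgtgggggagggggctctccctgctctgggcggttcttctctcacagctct
The C1qb stretch held 1 GAGGAA, which ended 24 bases before the start, and 1 TGCTGA, which ended 125 bases before it. The C1qc stretch held 1 GAGGAA on the opposite strand, 187 bases before the start, and no TGCTGA. Among 32851 RefSeq promoters of the same length, 23.3% held GAGGAA and 16.1% held TGCTGA, and the matches shown do not overlap one another. Of the other members with a sequence, C3, C3ar1 and C5ar1 each held 1 TGCTGA and no GAGGAA, and Cfp held neither. These matches describe letters only.

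Levels of C1qa were 10.63, 8.25, 10.28 and 9.99 on resistant arrays, 4.60, 3.63, 4.60 and 10.79 on sensitive arrays and 10.85, 9.17, 7.99, 9.48 and 9.54 on control arrays. Sensitive arrays 1, 2 and 3 were below every resistant and control array, and sensitive array 4 was within the range of the controls and above all resistant arrays. The C1qa mean was higher on resistant than on sensitive arrays by 3.88 ± 1.21 on the log2 scale (SE), and the sensitive mean differed from the control mean by -3.50 ± 1.15. C1qb gave 10.43, 9.36, 10.45 and 10.38 on resistant arrays, 3.82, 6.20, 6.28 and 10.67 on sensitive arrays and 10.50, 8.75, 8.38, 10.35 and 10.45 on control arrays. Here too 3 sensitive arrays were low and sensitive array 4 was the highest of all 13 arrays, and the differences of C1qb were 3.41 ± 1.05 between resistant and sensitive arrays and -2.94 ± 0.99 between sensitive and control arrays. C1qc gave 10.32, 7.30, 10.32 and 9.08 on resistant arrays, 4.59, 3.67, 4.16 and 9.88 on sensitive arrays and 10.35, 8.49, 7.53, 9.65 and 9.43 on control arrays. Its differences were 3.68 ± 1.15 and -3.52 ± 1.09 in the same comparisons. The other 2 probe sets of C1qb differed in the same direction as its main one, by 4.20 and 3.34 between resistant and sensitive arrays and by -4.06 and -2.88 between sensitive and control arrays.

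**Figure D1:**
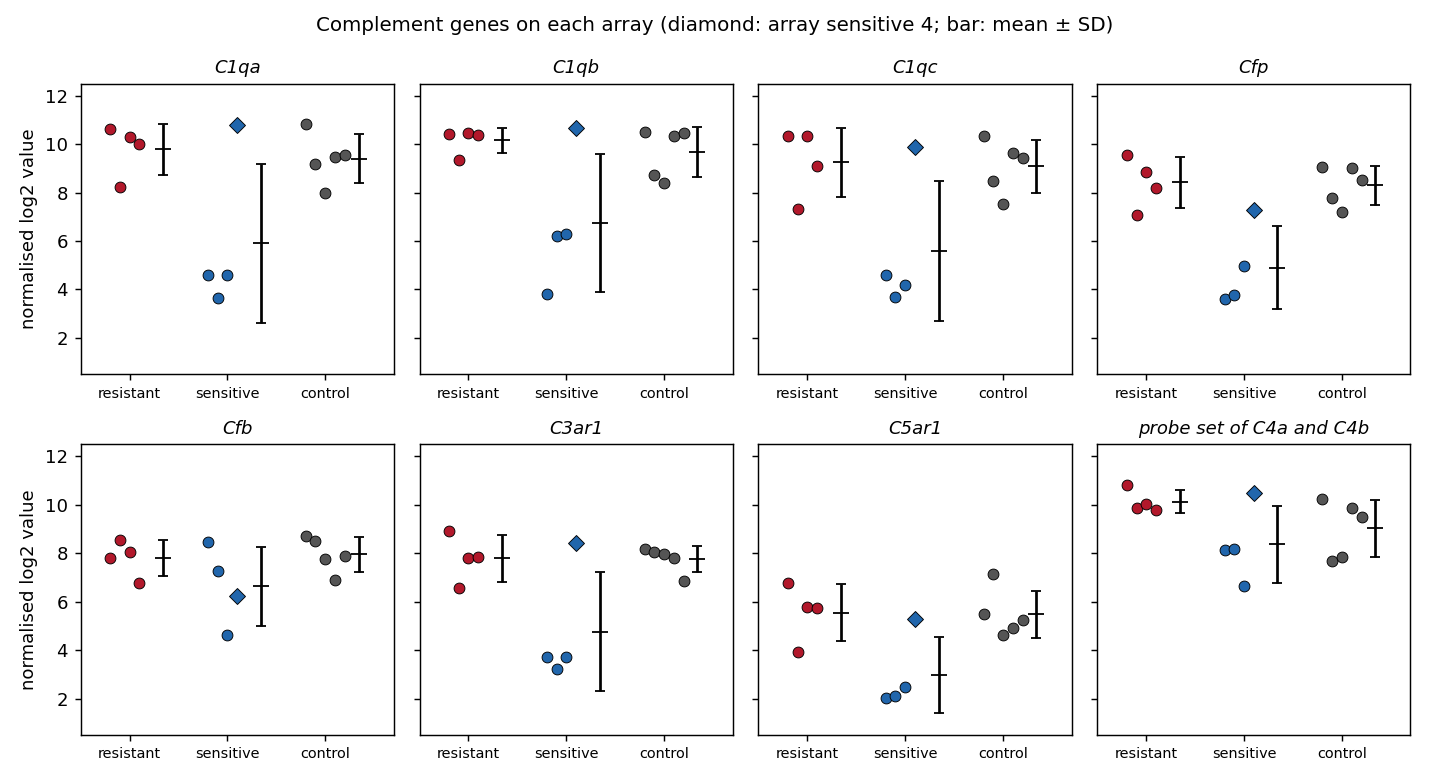
Normalised log2 value of each complement gene (vertical axis) on every array of the resistant, sensitive and control groups, with the mean ± SD to the right of the points of each group and sensitive array 4 drawn as a diamond. The 3 C1q genes, Cfp, C3ar1 and C5ar1 were low on sensitive arrays 1, 2 and 3 only, whereas Cfb and the probe set of C4a and C4b were spread differently.

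The single probe set that the platform annotation assigns to both C4a and C4b reads RNA of C4, the next component cleaved in the classical pathway. It gave 10.83, 9.86, 10.05 and 9.81 on resistant arrays, 8.15, 8.20, 6.63 and 10.49 on sensitive arrays and 10.24, 7.69, 7.85, 9.88 and 9.49 on control arrays. Sensitive arrays 1, 2 and 3 were below every resistant array. Sensitive arrays 1 and 2 lay within the range of the controls and sensitive array 3 below it. The resistant mean exceeded the sensitive mean by 1.77 (exact two-sided permutation p = 0.114) and the control mean by 1.11 (exact p = 0.175), and the sensitive mean differed from the control mean by -0.66 (exact p = 0.468). Without sensitive array 4, the resistant mean exceeded the sensitive mean by 2.48 (exact permutation p = 0.0286, the least that 4 arrays against 3 allow). Sensitive array 4 was set apart by its own high value, so this p is not a test of the group difference.

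Cfp encodes properdin, which stabilizes the C3 convertase of the alternative pathway and is made by myeloid cells. Its levels were 9.56, 7.07, 8.86 and 8.21 on resistant arrays, 3.61, 3.76, 4.96 and 7.29 on sensitive arrays and 9.06, 7.77, 7.21, 9.01 and 8.50 on control arrays. Sensitive array 4 lay at the lower end of both other groups, inside their ranges. Cfp had the smallest p of the 7 members in both comparisons with the sensitive group, with a difference of 3.52 ± 0.75 between resistant and sensitive arrays (limma adjusted p = 0.307) and -3.41 ± 0.72 between sensitive and control arrays (limma adjusted p = 0.180). A second probe set of Cfp did not follow it and differed by -0.44 and 0.23 in the same comparisons.

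Cfb encodes factor B, the protease of the alternative pathway, which hepatocytes, epithelial cells and activated macrophages make. It gave 7.81, 8.57, 8.06 and 6.77 on resistant arrays, 8.47, 7.26, 4.61 and 6.24 on sensitive arrays and 8.73, 8.53, 7.76, 6.91 and 7.89 on control arrays. Sensitive array 1, among the lowest for C1q, properdin and the peptide receptors, was among the higher arrays for Cfb, and sensitive array 3 was the lowest. The Cfb mean differed by 1.16 ± 0.68 between resistant and sensitive arrays (exact permutation p = 0.257) and by -1.32 ± 0.65 between sensitive and control arrays (exact permutation p = 0.143). The mesothelial markers, 8 genes such as Msln and Upk3b, had medians of 3.27, 7.23, 6.34 and 5.64 on resistant arrays, 8.31, 7.88, 2.87 and 2.58 on sensitive arrays and 3.19 to 5.25 on control arrays. Over the 13 arrays Cfb correlated at 0.51 with that median and at 0.23 with the macrophage median, and the part of these cells in its levels was not tested. The 5 hepatocyte markers tested, among them Alb and Ttr, had medians of 2.65 to 3.87 on resistant, 2.43 to 4.04 on sensitive and 2.43 to 3.98 on control arrays.

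C3ar1 and C5ar1 encode the receptors of the peptides C3a and C5a. C3ar1 gave 8.94, 6.56, 7.82 and 7.84 on resistant arrays, 3.72, 3.20, 3.71 and 8.43 on sensitive arrays and 8.17, 8.05, 7.97, 7.80 and 6.87 on control arrays. As for C1q, sensitive arrays 1, 2 and 3 were below all others. Sensitive array 4 exceeded every control array, as for C1qb but not for C1qa or C1qc. The differences of C3ar1 were 3.02 ± 0.91 between resistant and sensitive arrays and -3.00 ± 0.87 between sensitive and control arrays. The other 2 probe sets of C3ar1 differed by 2.74 and 3.30 and by -2.18 and -3.04 in these comparisons. C5ar1 was dimmer, at 6.77, 3.91, 5.80 and 5.74 on resistant arrays, 2.01, 2.12, 2.47 and 5.28 on sensitive arrays and 5.49, 7.13, 4.64, 4.92 and 5.24 on control arrays. Its value on sensitive array 1 was at the floor, which understates its differences of 2.58 ± 0.77 between resistant and sensitive arrays and -2.51 ± 0.73 between sensitive and control arrays. The second probe set of C5ar1 differed by only 0.10 and -0.15, so its 2 probe sets disagree.

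Between resistant and sensitive arrays, all 7 members had the higher mean in the resistant group, with a median difference of 3.41 against -0.07 over all genes tested. At an unadjusted limma p under 0.05, 6 of the 7 members were higher, every one but Cfb, where 4.54% of all genes tested were. None of the 7 was called at an adjusted p under 0.05, and 0% of all genes were called, with 1087 genes at an unadjusted p under 0.05. The methods' t-test, which in the study shared variance across genes by a random variance model and here did not, also called 0 genes after adjustment, with 528 genes and 2 members at an unadjusted p under 0.05. No member had groups that did not overlap, which 0.976% of all genes had in this direction. Exact permutation p-values of the members ran from 0.0571, for Cfp and C5ar1, to 0.257, where 4 arrays against 4 can give no less than 0.0286.

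Between sensitive and control arrays, all 7 members had the lower mean in the sensitive group, with a median difference of -3.00 against 0.09 over all genes tested. Again 6 of 7 members were lower at an unadjusted limma p under 0.05, where 6.58% of all genes were, and 0 members and 0% of genes were called after adjustment, with 1828 genes at an unadjusted p under 0.05. The methods' t-test in this plain form called 0 genes after adjustment and 1370 genes and 4 members before it. No member had non-overlapping groups, as 1.59% of all genes did. The exact permutation p was 0.0159 for Cfp, 0.0397 for C5ar1 and 0.0635 to 0.143 for the other 5 members, with 0.00794 the least that 4 arrays against 5 allow, and these p-values are not adjusted over the 21 tests of members.

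Between resistant and control arrays the differences were small beside their errors. They were 0.38 for C1qa (95% interval -2.09 to 2.85), 0.47 for C1qb (-1.66 to 2.60), 0.16 for C1qc (-2.18 to 2.51), 0.12 for Cfp (-1.42 to 1.65), -0.16 for Cfb (-1.55 to 1.22), 0.02 for C3ar1 (-1.84 to 1.87) and 0.07 for C5ar1 (-1.51 to 1.64). Each of these intervals leaves room for a change of over 1 in either direction. They use the spread of all 3 groups, the widely spread sensitive arrays included. With only the groups compared fitted, the SE of the 7 members was 0.43 to 0.69, against 0.65 to 1.15 here. The width of the intervals thus rests partly on arrays outside this comparison. None of the 7 members reached an unadjusted limma p under 0.05, where 0.982% of all genes were higher and 1.53% lower, and none had non-overlapping groups, where 1.31% of genes were higher and 1.39% lower. After adjustment 0% of genes were called by limma, with 386 at an unadjusted p under 0.05, and the methods' t-test in its plain form called 0, with 1041 before adjustment.

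**Figure D2:**
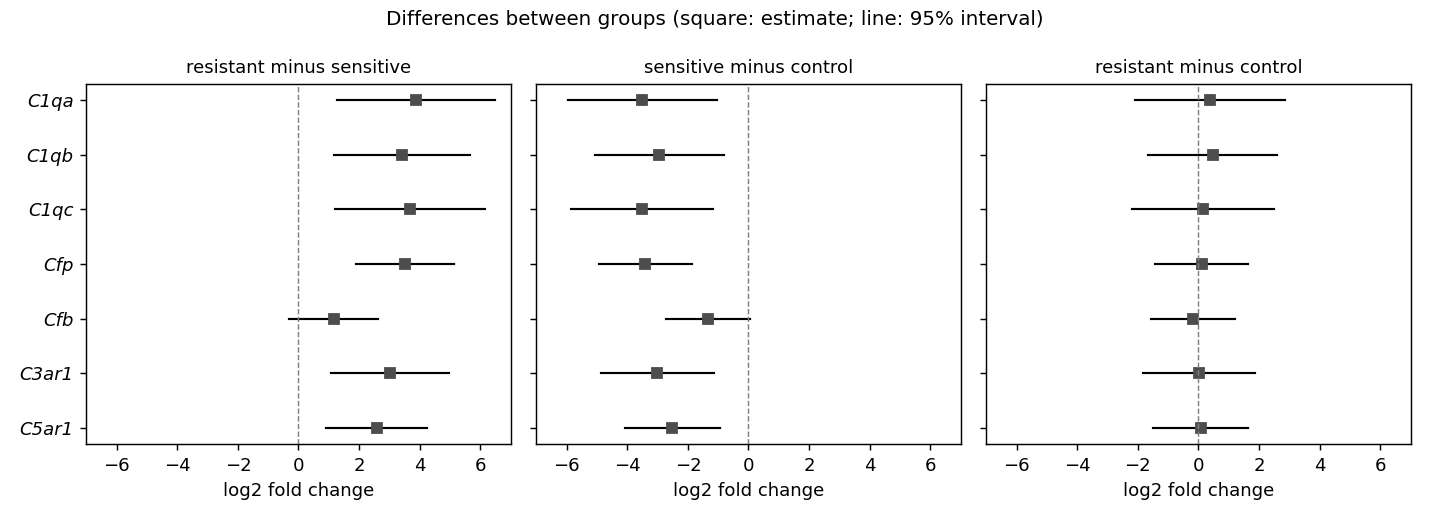
Log2 fold change of the 7 members tested (horizontal axis) with 95% intervals, for resistant minus sensitive, sensitive minus control and resistant minus control arrays. The resistant minus sensitive estimates lie between 1.16 and 3.88 and the sensitive minus control estimates between -3.52 and -1.32, while those of resistant minus control lie near 0.

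The size of these differences rested on which sensitive arrays were kept. Without sensitive array 4, 6 members were called higher in resistant than in the other 3 sensitive arrays, with differences of 3.35 to 5.51 and limma adjusted p from 0.000396 for C3ar1 to 0.0144 for C5ar1, where 2.47% of all genes were called higher. The same 6 members, all but Cfb, were then called lower in sensitive than in control arrays, with differences of -5.13 to -3.28 and limma adjusted p from 0.000228 for C3ar1 to 0.00966 for C5ar1, where 3.53% of genes were. The groups of these 6 members then did not overlap, which 6.18% of all genes showed as higher in resistant than in sensitive arrays and 6.88% as lower in sensitive than in control arrays. Without sensitive arrays 1, 2 and 3, so that sensitive array 4 stood alone and was assumed to vary like the other groups, the resistant minus sensitive differences were -1.01 for C1qa, -0.51 for C1qb, -0.63 for C1qc and -0.64 for C3ar1. Against that single array 3 members had no overlap with the resistant arrays, where 38.6% of all genes had none, and 3 had none with the control arrays, where 37.4% of all genes had none. Since the sensitive arrays were set apart here by their own values, these fits describe what each array contributed. In such sorted samples, fewer cells of a type and less RNA per cell cannot be told apart.

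The members were then read against the macrophage content of the same arrays. Over the 13 arrays, 5 of the 6 members that were low together correlated with the macrophage median at 0.92 to 0.96, and C5ar1 at 0.86. On the 10 arrays without sensitive arrays 1, 2 and 3, the same correlations were 0.83 for C1qa, 0.73 for C1qb, 0.71 for C1qc, 0.63 for C3ar1, 0.41 for Cfp and 0.21 for C5ar1, and -0.53 for Cfb. The points share their arrays and the normalization, and on all 13 arrays the correlations rest mainly on the gap between 3 arrays and the rest. Among the members themselves, C1qa and C1qc correlated at 0.99 over 13 arrays and 0.93 over 10, and C1qb correlated with C3ar1 at 0.87 and 0.18.

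With the macrophage median of each array subtracted, none of the 7 members differed between groups at an exact permutation p under 0.05. C1qa stood at 0.94 ± 0.76 on resistant and -0.23 ± 1.22 on sensitive arrays (SD, exact permutation p = 0.171) and at 0.61 ± 0.67 on control arrays. Cfp stood at -0.43 ± 0.79 on resistant, -1.23 ± 0.98 on sensitive and -0.49 ± 0.46 on control arrays, with exact permutation p-values of 0.229 for resistant against sensitive and 0.183 for sensitive against control arrays. With the mean of the list subtracted in place of its median, Cfp was higher by 1.10 on resistant than on sensitive arrays (exact permutation p = 0.0286) and differed by -0.999 between sensitive and control arrays (exact permutation p = 0.0159). Other members passed in single settings. With those of Cfp, 5 relative values passed 0.05 only under an alternative, and none was adjusted. Beside them, 344 relative values of the members and the C4a and C4b probe set kept their direction and side of the threshold. A further 46 changed sign and 7 no longer passed. C1qb was higher by 0.90 on resistant than on sensitive arrays without sensitive array 3 (exact permutation p = 0.0286) and by 0.85 on resistant than on control arrays without control arrays 4 and 5 (exact permutation p = 0.0286). Cfb was higher by 2.64 on sensitive than on control arrays without sensitive array 4 (exact permutation p = 0.0357), against 1.34 with it. C3ar1 and C5ar1 differed by 0.31 and -0.13 between resistant and sensitive arrays on this relative scale.

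On the relative scale with all arrays and the list median, the shared probe set of C4a and C4b alone had an exact permutation p under 0.05. It lay above the macrophage median by 1.46 to 1.57 on resistant arrays 1, 2 and 3 and 0.62 on resistant array 4, by 3.73, 2.80, 1.56 and 0.83 on sensitive arrays and by 0.77, -0.69, -0.57, 0.86 and 0.79 on control arrays. The sensitive mean exceeded the control mean by 1.99 (exact two-sided permutation p = 0.0159), and sensitive arrays 1 and 2 were the highest of all 13. The level of the probe set itself differed by -0.66, while the list median averaged 6.14 on sensitive and 8.80 on control arrays. A gene with equal levels in both groups would therefore also lie higher on sensitive arrays on this scale. The share of all genes that do so was not computed. This p thus reflects unequal change of the probe set and the list, and is not a test of a change of C4 RNA. Cfb differed in the same direction on this scale, by 1.34 (exact permutation p = 0.429). Leaving out control array 1, 2, 3 or 5 gave differences of 1.76 to 2.13 with an exact permutation p of 0.0571, and leaving out sensitive array 1 gave 1.49 with an exact permutation p of 0.0893. Without control arrays 4 and 5 the difference was 2.39 (exact permutation p = 0.0571), and sensitive array 4 alone differed from the controls by 0.60 (exact permutation p = 0.667). Cfb showed the widest spread relative to the list, at 4.04, 1.86, -0.46 and -3.42 on sensitive arrays.

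**Figure D3:**
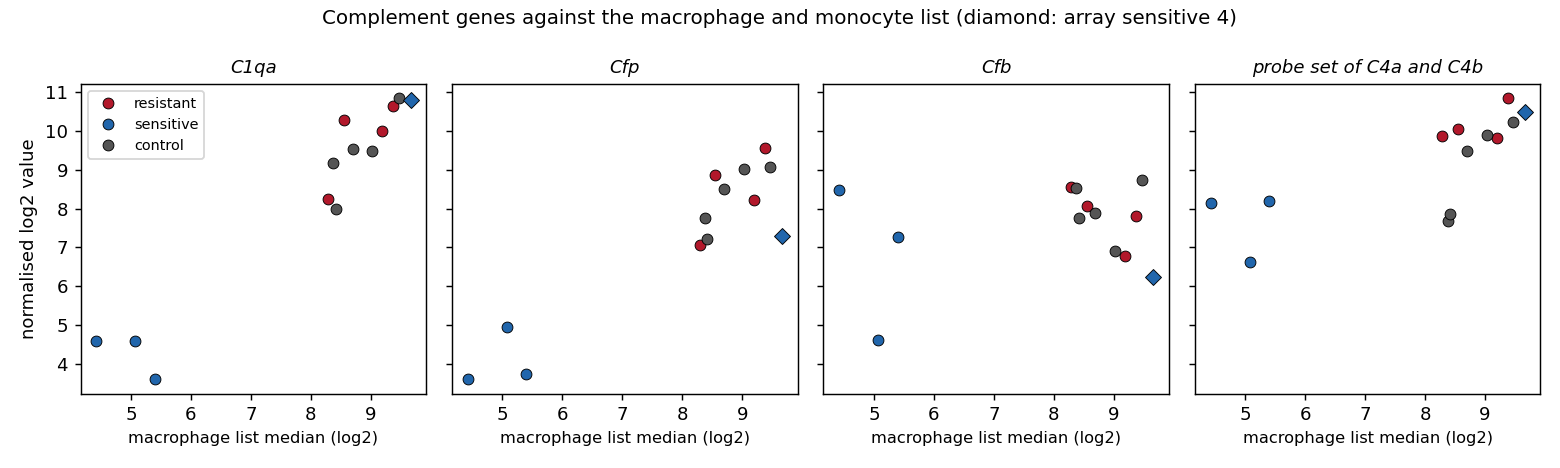
Normalised log2 value of C1qa, Cfp, Cfb and the probe set of C4a and C4b (vertical axis) against the median of the macrophage and monocyte markers on the same array (horizontal axis, log2), with sensitive array 4 as a diamond. C1qa and Cfp are lowest on sensitive arrays 1, 2 and 3, where the list is lowest, whereas sensitive array 1 is among the higher arrays for Cfb.

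The genes outside complement whose values over the 13 arrays were most like the mean of the 3 C1q genes were P2ry6, Fcgr1, Pik3cb, Rnf149, Galc, Lamp1, Stab1, Gatm, Tmem106a and Apoe, with Pearson r of 0.967 to 0.981. P2ry6 encodes a receptor for uridine nucleotides, Fcgr1 a high-affinity receptor for IgG, Stab1 a scavenger receptor and Apoe a lipid carrier. P2ry6, the nearest, averaged 7.23 on resistant, 4.42 on sensitive and 7.50 on control arrays. On the 10 arrays without sensitive arrays 1, 2 and 3, these r values were 0.752 for Stab1 to 0.920 for Lamp1.

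Beyond the members, 49 other complement genes were listed by role, of which 41 had a probe set of their own and 34 were tested. None was called after adjustment. At an unadjusted limma p under 0.05, 7 of the 34 were higher and 1 lower on resistant than on sensitive arrays, where 4.54% of all genes were higher and 2.53% lower. On sensitive compared with control arrays 0 were higher and 6 lower, where 5.31% of all genes were higher and 6.58% lower. The median difference of the 34 genes was 0.09 between resistant and sensitive arrays, 0.0028 between sensitive and control arrays and 0.04 between resistant and control arrays, unlike the 7 members. Without sensitive array 4, 7 of the 34 were called higher in resistant than in sensitive arrays, namely Fcna, Colec12, Itgam, Itgb2, Vsig4, Cd93 and Lrp1, where 2.47% of all genes were called higher. All of these but Colec12 were called lower in sensitive than in control arrays, where 3.53% of all genes were.

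Among the complement receptors, Itgam and Itgb2 encode the 2 chains of complement receptor 3, which binds cleaved C3 on targets. Itgam gave 7.96, 5.90, 6.88 and 6.20 on resistant arrays, was at the floor of 2.01 on sensitive arrays 1, 2 and 3 and at 6.31 on sensitive array 4, and gave 7.01, 7.99, 7.02, 7.02 and 5.64 on control arrays. Its difference was 3.65 ± 0.86 between resistant and sensitive arrays and -3.85 ± 0.81 between sensitive and control arrays, and that of Itgb2 was 2.56 ± 0.70 and -2.81 ± 0.67. Vsig4, a receptor for C3 fragments on resident macrophages, gave 7.72, 7.13, 6.88 and 7.45 on resistant arrays, 2.01, 2.91, 2.37 and 6.88 on sensitive arrays and 7.37, 7.82, 6.54, 7.41 and 4.17 on control arrays. Itgam, Itgb2 and Vsig4 thus had the same low sensitive arrays as C1q, but not every gene of the receptor list did. C1qbp gave 9.21, 9.91, 10.61 and 9.20 on sensitive arrays and 8.87, 9.21, 8.89 and 9.24 on resistant arrays. Cr2 was highest on sensitive array 3, at 6.70. Of the 8 receptor genes tested beside the members, 6 had the higher mean on resistant than on sensitive arrays and 2 the lower.

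In the lectin pathway, Fcna encodes ficolin A, which recognizes sugars on targets and is made by macrophages. Fcna gave 9.71, 7.03, 8.71 and 8.11 on resistant arrays, 3.44, 2.22, 3.96 and 7.82 on sensitive arrays and 9.17, 7.89, 7.29, 9.89 and 8.10 on control arrays, with differences of 4.03 ± 0.98 and -4.11 ± 0.93 in the 2 comparisons with the sensitive group. Colec12, a scavenger receptor of the collectin family, gave 7.70, 6.58, 6.66 and 7.15 on resistant arrays, 3.75, 5.69, 3.83 and 6.35 on sensitive arrays and 6.33, 5.75, 5.43, 6.29 and 5.76 on control arrays. All 4 resistant arrays were above every sensitive array, as for 0.976% of all genes, and above every control array, as for 1.31% of all genes. The difference of Colec12 was 2.12 ± 0.53 between resistant and sensitive arrays (exact permutation p = 0.0286) and 1.11 ± 0.51 between resistant and control arrays (exact permutation p = 0.00794), each the smallest p those arrays allow and neither adjusted, and its limma adjusted p was 0.433 and 1.00.

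In the classical pathway beyond C1q, C1s1, a protease of the C1 complex, gave 3.80, 6.53, 8.30 and 3.62 on resistant arrays, 8.87, 8.98, 4.89 and 3.80 on sensitive arrays and 7.72, 7.71, 8.74, 5.89 and 8.56 on control arrays, with a difference of -2.16 ± 1.18 between resistant and control arrays. C2, which lies 87 bases from Cfb in the RefSeq table and is cleaved beside C4, gave 4.86, 8.08, 6.17 and 5.65 on resistant arrays, 7.27, 8.33, 4.60 and 4.22 on sensitive arrays and 5.74, 5.11, 6.30, 4.99 and 5.79 on control arrays. The 5 terminal components, the 4 soluble regulators and the 7 membrane regulators tested had 0 genes at an unadjusted limma p under 0.05 in any comparison, with list medians of -0.24 to 0.31. Thbd, or thrombomodulin, gave 6.86, 7.26, 6.81 and 7.22 on resistant arrays, 5.59, 7.18, 4.78 and 8.08 on sensitive arrays and 5.93, 6.71, 5.99, 6.26 and 6.74 on control arrays. Its resistant arrays lay above every control array, as 1.31% of all genes did. The mean difference was 0.71 (exact permutation p = 0.0238, not adjusted), and its unadjusted limma p was 0.203.

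**Figure D4:**
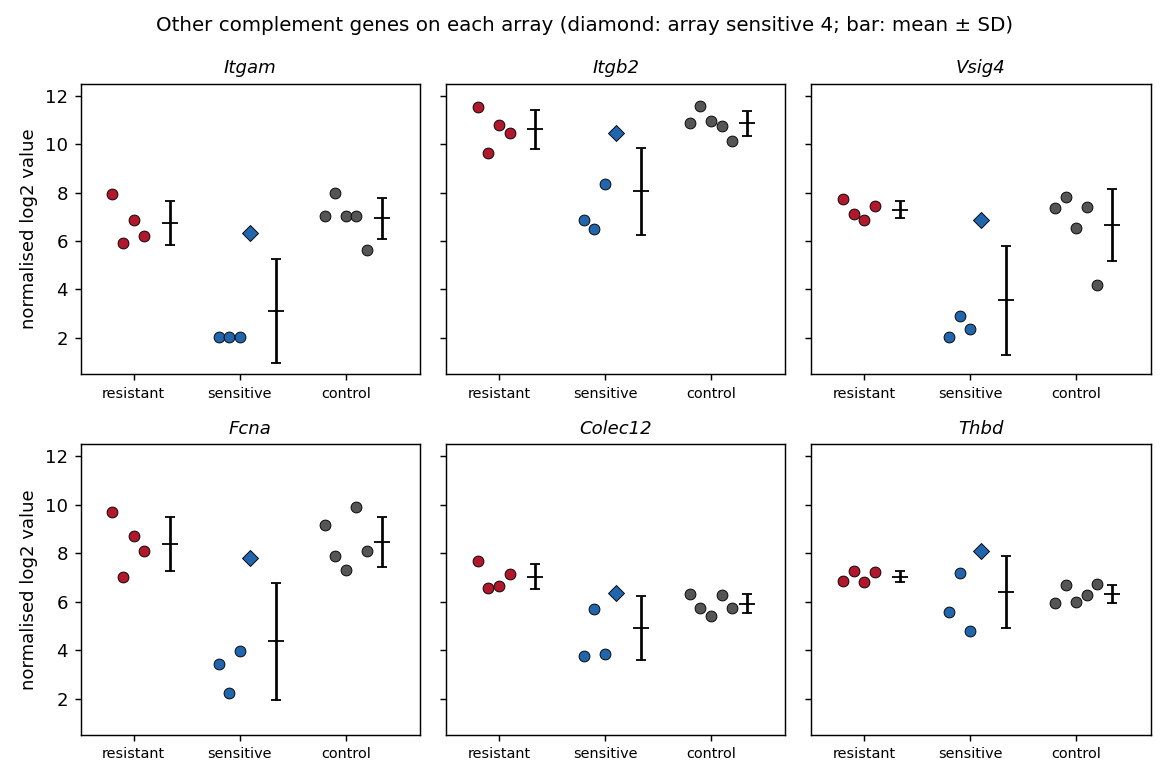
Normalised log2 value (vertical axis) of 3 complement receptor genes (Itgam, Itgb2, Vsig4), 2 genes of the lectin pathway list (Fcna, Colec12) and a membrane regulator (Thbd) on each resistant, sensitive and control array, with mean ± SD beside the points. Itgam is at the floor of 2.01 on sensitive arrays 1, 2 and 3, and the 4 resistant arrays of Colec12 lie above all others.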

How the data were processed

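Expression was measured on 13 single-color arrays. Per the labels, cRNA was prepared by the Affymetrix protocol and processed with MAS5 (version not given), whereas the methods name Illumina bead chips and BRB-ArrayTools; the deposited table holds 45101 Affymetrix probe sets. The deposited values (0.461 to 13.0, array medians 2.72 to 3.04) were taken as log2 intensities; the sources used here give neither the log base nor the normalization, and every fold assumes base 2. Values were quantile normalized and floored at their 30th percentile, 2.01. In the platform table, 34958 probe sets had 1 gene symbol, 932 several and 9211 were not listed. Each gene was represented by its probe set of highest mean, and genes above the floor on at least 4 arrays were tested. Apart from the values relative to the macrophage lists, no test set the level of a probe set against that of another.

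Group differences came from limma 3.58.1 run under R 4.3.3 (lmFit, eBayes with trend, all 3 groups, 10 residual degrees of freedom, two-sided, Benjamini-Hochberg over all genes, adjusted p under 0.05) and single values by exact two-sided permutation, where p-values measure the spread between these arrays. The test was checked on simulated data. Named genes beyond the members were up to 3 genes of smallest p per role list and comparison, and the 10 genes most like C1q; genes most like C3 were not sought. Members, lists and alternatives were chosen with earlier results of these data known. Precision is limited by the number of arrays. Alternatives were normalization, floor, filter, probe set rule, variance model, test, replicate block, array weights and arrays left out.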

Additional observations from a re-analysis of the deposited data

Results flagged for a closer look

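In 6 of 24 sets of arrays (8 probe sets in 3 groups), the highest or lowest array stood apart from the rest of its group by Dixon's ratio, the gap to the nearest array over the range of the group; chance gives about 1 in 20 such groups, and the 24 are not independent. In 4 of the 6, sensitive array 4 stood above the other 3 sensitive arrays. Its C1qa level of 10.79, against 4.60 for the nearest array, gave a ratio of 0.864. C1qc, at 9.88 against 4.59, gave 0.852, C3ar1, at 8.43 against 3.72, gave 0.901, and C5ar1, at 5.28 against 2.47, gave 0.861.

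C1qb was low on resistant array 2, at 9.36 against 10.38 for the nearest resistant array, with a ratio of 0.931. C3ar1 was low on control array 5, at 6.87 against 7.80 for the nearest control array, with a ratio of 0.717.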

How the results depend on the processing

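Of the differences of the 7 members in 3 comparisons, 562 values under the alternatives kept their direction and side of the threshold, 12 passed it only without sensitive array 4 and 32 changed sign, as did 46 of the differences relative to the macrophage list. Most sign changes were of resistant minus control values near 0. Leaving out sensitive array 4 was the one alternative run that called a member. For the differences of the members the threshold was the adjusted p. Changes at an unadjusted p, such as those of Cfb under the other scalings, are therefore not counted.

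Genes called between resistant and sensitive arrays numbered 1 with the floor at the 50th percentile, 4 among genes above the floor on all arrays, 2 with only those groups fitted and 7 without sensitive arrays 1, 2 and 3. Without those arrays 5 genes were called between sensitive and control arrays, and array weights called 34 between resistant and control arrays. Leaving out 1 array at a time, genes called ranged over 0 to 428 between resistant and sensitive and 0 to 696 between sensitive and control arrays, and members called, like members with groups that do not overlap, over 0 to 6 in both. Each maximum came without sensitive array 4. The 6 members with no overlap compare with 6.18% of all genes higher in resistant than in sensitive and 6.88% lower in sensitive than in control arrays. Against sensitive array 4 alone, 3 members had no overlap in each comparison, where 38.6% and 37.4% of all genes had none.

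Resistant minus control became -0.072 for C3ar1 and -0.016 for C5ar1 with values as deposited, -0.10 and -0.045 with arrays centred on medians and -0.27 and -0.20 without control arrays 4 and 5. It became -0.044 for Cfp with all probe sets averaged and 0.22 for Cfb with array weights. Leaving out 1 array at a time gave ranges of -0.43 to 0.18 for Cfb, -0.26 to 0.57 for Cfp, -0.23 to 0.81 for C1qc, -0.33 to 0.62 for C5ar1 and -0.36 to 0.43 for C3ar1. With the replicate number as a block, C3ar1 became -0.21 and no call changed. Same-numbered arrays deviated together at -0.43 to 0.53, which does not settle whether the numbers pair the samples, and they were not treated as pairs. The scalings moved the median difference of all genes from -0.07 to 0.04 between resistant and sensitive arrays (medians centred), and from 0.09 to -0.05 between sensitive and control arrays.

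Without sensitive arrays 1, 2 and 3, resistant minus sensitive became -1.01, -0.51, -0.63 and -0.64 for C1qa, C1qb, C1qc and C3ar1 and -0.35 for the probe set of C4a and C4b. Sensitive minus control became 1.39, 0.98, 0.79 and 0.66 for the same 4 genes and 1.46 for that probe set.

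Relative to the macrophage list and without those arrays, resistant minus sensitive became -0.20 for C1qa, 1.08 for C5ar1, 2.38 for Cfb and 0.46 for the C4a and C4b probe set. Sensitive minus control became 0.52 for C1qa, 0.12 for C1qb, -1.07 for C5ar1 and -2.59 for Cfb. Without control arrays 4 and 5, sensitive minus control became 0.15 for C1qb and -0.17 for C5ar1, and resistant minus control -0.30 for C5ar1. Relative to the large peritoneal macrophage list, sensitive minus control became -0.52 for C5ar1, and resistant minus control -0.40, -0.31, -0.61, -0.71 and -0.66 for C1qa, C1qb, C1qc, C5ar1 and Cfp. With the mean of the list, C5ar1 became 0.16 in resistant minus sensitive and -0.11 in sensitive minus control, and C3ar1 9.67e-05 in resistant minus control. Leaving out 1 array at a time, the relative resistant minus control values ranged over -0.21 to 0.53 for C5ar1, -0.24 to 0.18 for C3ar1, -0.66 to 0.24 for Cfb, -0.35 to 0.57 for C1qc and -0.19 to 0.32 for Cfp. Relative sensitive minus control ranged over -0.11 to 0.66 for C5ar1 and -0.52 to 0.12 for C1qb, and relative resistant minus sensitive over -0.53 to 0.23 for C5ar1. The cause of these changes was not tested.

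Permutation of single values can give no p under 0.0286 for 4 arrays against 4 and 0.00794 for 4 against 5. Values at the floor understate differences of C5ar1, Itgam and Vsig4.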
